A study of Mus musculus with 20 samples.

Results

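The synaptic vesicle and exocytosis machinery was followed here as the 76 genes, of 19269 in the count table, whose symbols belong to the syntaxin, VAMP, SNAP, synaptotagmin, complexin, syntaxin-binding, RIM, Munc13, CAPS, Rab3, synapsin, SV2, synaptophysin and synaptoporin families, together with Nsf. Members were chosen by symbol alone, so the set also holds relatives that act at the Golgi, on endosomes or in other tissues, and Snap91, which encodes the clathrin adaptor AP180 and is no SNARE. Transmitter and hormone release run on the same core reaction. A VAMP on the vesicle pairs with a syntaxin and a SNAP protein on the plasma membrane, Munc13 proteins prime that complex, synaptotagmins and complexins couple it to calcium entry, and NSF takes it apart again. In hypothalamic neurons these proteins serve small synaptic vesicles as well as the dense-core vesicles that hold peptides such as gonadotropin-releasing hormone (GnRH).

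The RNA came from preoptic area punches of female mice. Each library held a pool of 3 to 4 animals, either adults of 70 to 150 days in diestrus or young mice of day 21. In the pull-down (IP), an antibody collects ribosomes that carry GFP-tagged L10a, and the tag is expressed in GnRH neurons where a GnRH-Cre driver removes a floxed stop in front of L10a-GFP. The 5 GFP-negative pools had no tagged ribosomes, and both fractions of each, the IP and the supernatant left after it, were sequenced: both adult pools carried GnRH-Cre only, young pools 1 and 2 were wild type, and young pool 3 carried floxed L10a-GFP only. Age and genotype therefore change together among the negative pools. An adult pool with both alleles, here the GFP-positive pool, gave 1 IP and 1 supernatant. Supernatant RNA of 4 further GFP-positive pools, 2 adult and 2 young, had been sequenced in an earlier first set and again in a second set with all other libraries; these are called prior pools. The labels do not say whether different pools were separate cohorts, so p-values measure the spread between these pools. Between the sequencing sets, they measure how far the shift between libraries of the same RNA varies over the 4 prior pools.

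The 20 libraries held 27.7 to 50.5 M counts, and 3 counts, taken as the detection floor, corresponded to 0.0594 to 0.108 CPM (counts per 1 M counts, scaled between libraries by the trimmed mean of M-values, TMM, in all that follows). The tissue label was checked by 11 pan-neuronal genes, whose summed level was 5074 to 7183 CPM in the 10 second-set supernatants. Gnrh1, the check of the tagged pull-down, reached 1457 CPM in the tagged IP and 27.3 CPM in its own supernatant, against 7.85 to 33.5 CPM in the 5 negative IP libraries. Exons of 12 members overlap a gene on the opposite strand (among them Rab3a, Rab3b, Snap47, Stx18, Syn1, Syn2, Syn3 and Stx4a), and since the strand setting of the counting is not given in the sources used here, reads of such partners cannot be told apart. The partner genes of Stx18 and Syn1 averaged 655 and 547 CPM.

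Levels between genes are compared per kilobase of the longest annotated transcript (RPKM), as means over the 10 second-set supernatants. The neuronal SNARE genes led the module. Snap25, the plasma membrane SNARE of neurons, averaged 1375 ± 140 RPKM, and Vamp2, the synaptic vesicle SNARE, 1152 ± 90.6 RPKM (SD, n = 10). Rab3a, the main vesicle GTPase of synapses, lay between them at 1178 ± 95.4 RPKM, a gap to Vamp2 smaller than either SD. Cplx1, a complexin that binds the assembled SNARE complex, reached 787 ± 112 RPKM, ahead of Snap47, a broadly expressed SNAP relative, at 447 ± 63.3 RPKM.

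The other partners of that core were less abundant. Nsf averaged 247 ± 37.2 RPKM and Syp, the vesicle protein synaptophysin, 205 ± 30.7 RPKM. The synapsins Syn2 and Syn1, which tether vesicles in the reserve pool, stood at 155 ± 20.5 and 142 ± 39.0 RPKM, and Vamp1 at 152 ± 14.4 RPKM. The plasma membrane syntaxin gene Stx1a was far below its SNARE partners, at 45.3 ± 11.5 RPKM. The most abundant syntaxin was Stx7, which acts on late endosomes, at 86.4 ± 4.16 RPKM, followed by the endosomal Stx12 at 68.7 ± 5.82 RPKM.

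Among the synaptotagmins, Syt5, Syt11 and Syt1 came first at 75.2 ± 14.0, 62.1 ± 9.28 and 61.2 ± 10.02 RPKM, and the gap between Syt11 and Syt1 was smaller than either SD. Syt2, another fast sensor of synaptic release, averaged 1.12 ± 0.22 RPKM. Among the priming factors, Cadps, which primes dense-core vesicles, averaged 25.3 ± 5.16 RPKM and Rims2 25.4 ± 4.07 RPKM. Rims1 averaged 5.04 ± 0.67 RPKM, Unc13a 3.38 ± 0.53 RPKM and Unc13b 0.30 ± 0.06 RPKM. The transcripts by which the Unc13a and Unc13b counts were divided are long, at 10255 and 14754 nt. Cplx4, Stx19 and Syt8 averaged at most 0.02 RPKM and passed the filter on low counts in none of the fits of supernatants, so 73 of the 76 members were tested there.

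**Figure D1:**
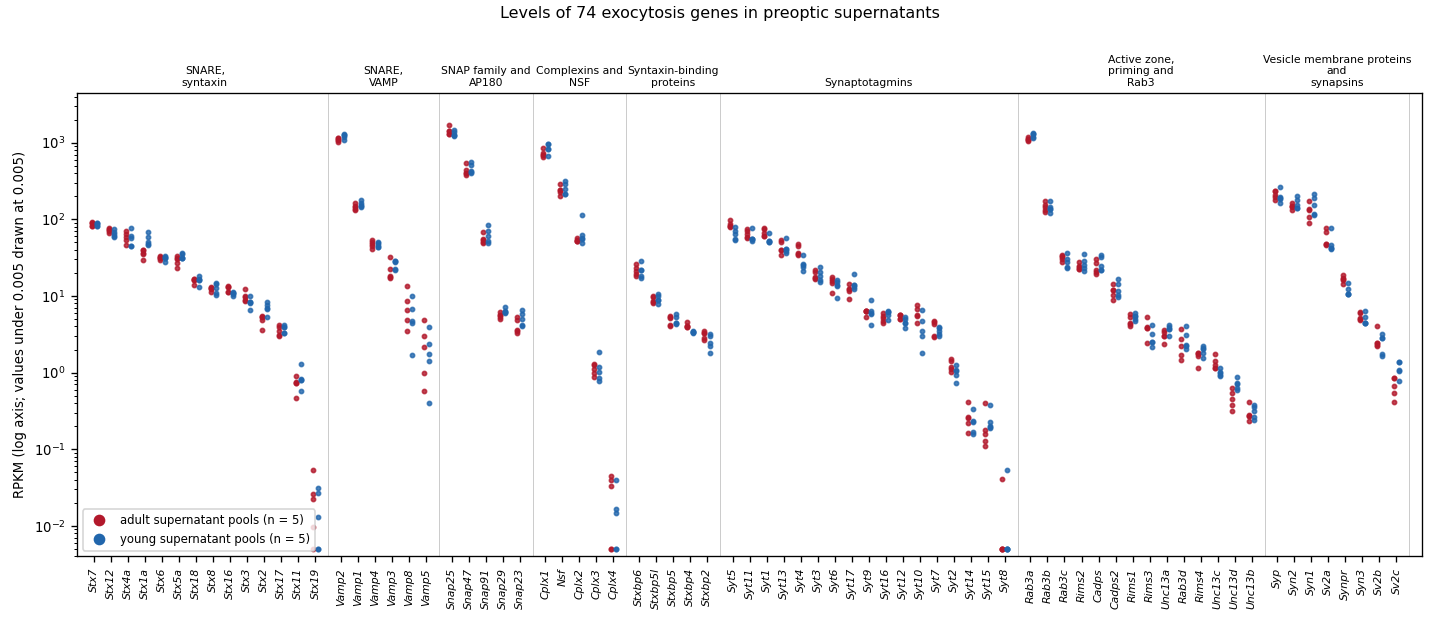
RPKM of 74 of the 76 members (log axis), grouped by role and ordered by mean level within a role; each point is a second-set supernatant, red for the 5 adult pools and blue for the 5 young pools. Snap25, Rab3a, Vamp2 and Cplx1 stand above all other members drawn in every pool, and Cplx4, Stx19 and Syt8 lie at the bottom.

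The pull-down from mice without the tag was compared with its own supernatant to see which mRNAs are recovered without a tagged ribosome. The module split: 13 of 73 tested members rose and 15 fell in the IP, and the fall took in most of the abundant SNARE core. All VAMPs tested except Vamp3 and Vamp8 fell, and so did Snap25, Cplx1, Rab3a and Rab3b, whereas Unc13a, Unc13c, Syn3, Sv2a, Syt1, Syt7 and Syt11 rose. The calls are those of edgeR's quasi-likelihood test over both ages with Benjamini-Hochberg adjustment over all genes at 0.05. That fit did not pair the IP and supernatant of a pool. The share of members called was 38.4%, beside 32.1% of all 16361 genes tested (15.8% higher and 16.2% lower). Since calls are more frequent among abundant genes, the same shares among genes with a mean log2 CPM of at least 5 were 46.8% of 47 members and 54.3% of 6477 genes, so at that level the share of members lay below that of all genes. In bulk RNA, fewer cells of a type and less RNA per cell cannot be told apart, and this holds for every comparison here.

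Vamp2 had 1525 and 1359 CPM in the adult IP and 1651, 1425 and 1674 CPM in the young IP, against 2367 and 2386 CPM in the adult supernatants and 2736, 2586 and 2789 CPM in the young supernatants. Every IP library lay below every supernatant. The log2 fold change was −0.78 (SE 0.07, edgeR adjusted p = 3.79e-05), with −0.74 in adult and −0.82 in young pools. Snap25 had 2065 and 2000 CPM in the adult IP and 1655, 1625 and 2131 CPM in the young IP, against 2751 and 2719 CPM in adult and 2562, 2683 and 2958 CPM in young supernatants. The groups again did not overlap, and the log2 fold change was −0.55 (SE 0.09, edgeR adjusted p = 0.000993).

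Stx7 fell furthest among members above 100 CPM in the supernatants. It averaged 147 ± 16.7 CPM in the IP and 295 ± 12.7 CPM in the supernatant (SD, n = 5 each), and the IP held between 0.436 and 0.528 times the supernatant level in all 5 pools. Its log2 fold change was −1.03 (SE 0.10, edgeR adjusted p = 6.49e-05). Stx8, its partner on late endosomes, fell by 0.71 on the log2 scale (SE 0.12), and Stx6 of the trans-Golgi network fell by 0.55 (SE 0.13). Rab3a averaged 1303 ± 62.5 CPM in the IP and 1853 ± 168 CPM in the supernatant, and its close relative Rab3b 295 ± 25.8 and 459 ± 18.9 CPM. Vamp1 and Vamp4 fell by 0.63 and 0.50 (SE 0.11 each) and Cplx1 fell by 0.45 (SE 0.08) on the same scale. Unc13d, known from granule release in immune cells, was at 0 in 2 of the 5 IP libraries and at most at 1.47 CPM in the others, against 1.28 to 3.57 CPM in the supernatants.

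The members that rose included large priming factors. Unc13a, a Munc13 protein that primes vesicles for fusion, had 67.1 and 89.2 CPM in the adult IP and 102, 86.1 and 117 CPM in the young IP, against 23.9 and 30.8 CPM in adult and 39.8, 31.1 and 42.2 CPM in young supernatants. The groups were fully separate, with IP over supernatant ratios of 2.56 to 2.90 in the 5 pools and a log2 fold change of 1.44 (SE 0.15, edgeR adjusted p = 8.41e-05). Syn3, the least abundant synapsin, averaged 46.3 ± 2.89 CPM in the IP and 18.8 ± 1.35 CPM in the supernatant, and Sv2a, a glycoprotein of synaptic vesicles, 330 ± 29.0 and 191 ± 13.2 CPM (SD, n = 5 each). Their log2 fold changes were 1.26 (SE 0.12) and 0.75 (SE 0.08).

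Rab3d, a Rab3 form best known from secretory granules of exocrine cells, had the largest rise of the module. It had 30.2 and 22.3 CPM in the adult IP and 42.1, 48.9 and 41.0 CPM in the young IP, against 10.6 and 14.4 CPM in adult and 8.72, 7.85 and 15.7 CPM in young supernatants. Every IP library exceeded every supernatant, but the ratio ran from 1.54 to 6.23 between pools, and the log2 fold change was 1.52 (SE 0.24, edgeR adjusted p = 0.000837). Among the synaptotagmins Syt1 rose by 0.58 (SE 0.09), Syt11 by 0.68 (SE 0.08) and Syt7, a slow calcium sensor, by 0.68 (SE 0.22) on the log2 scale. The tomosyn genes Stxbp5l and Stxbp5, whose products hold back SNARE assembly, rose by 0.93 (SE 0.18) and 0.58 (SE 0.12), and Snap91 rose by 0.48 (SE 0.09).

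**Figure D2:**
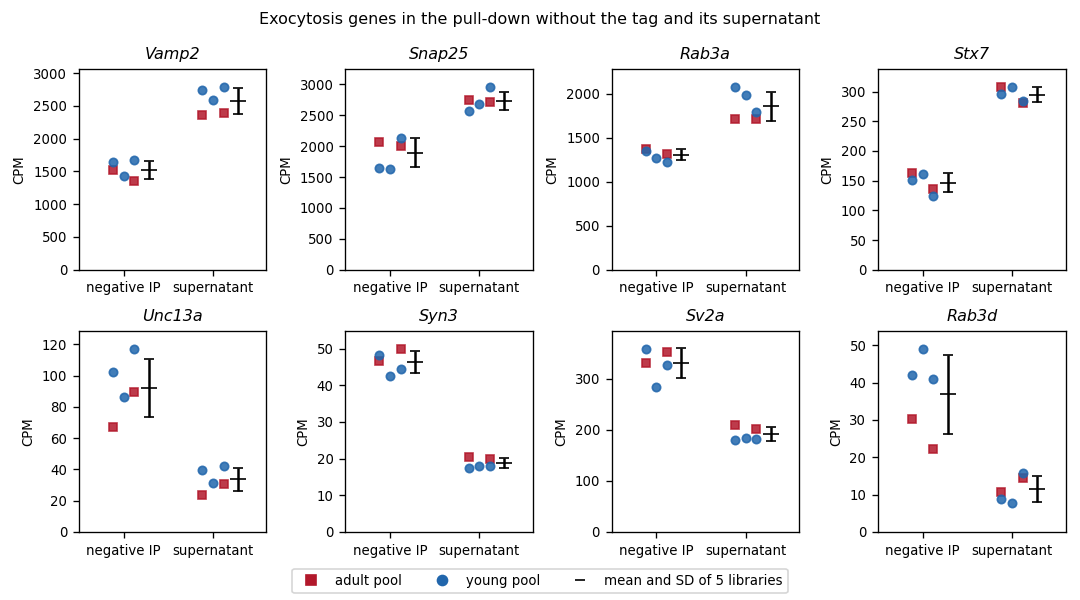
CPM of 8 members in the 5 negative IP libraries (left) and the 5 supernatants of the same pools (right); squares are adult and circles young pools, and the black mark is the mean with its SD. Vamp2, Snap25, Rab3a and Stx7 lie lower in every IP library, and Unc13a, Syn3, Sv2a and Rab3d lie higher.

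Direction went with transcript length. Of 23 members with transcripts up to 3000 nt, 1 rose and 7 fell in the IP, with a median log2 fold change of −0.35. Of 33 members above 3000 and up to 5000 nt, 6 rose and 8 fell (median −0.01), and of 17 members above 5000 nt, 6 rose and none fell (median 0.44). All genes tested showed the same order, with medians of −0.34, 0.12 and 0.59, so the length relation was not particular to the module. Across genes, which are not independent replicates, Spearman's rho between length and log2 fold change was 0.418 for the 73 members and 0.472 for all genes with a length.

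With a length term fitted in every library, Rab3a (−0.10, adjusted p = 0.274), Snap25 (−0.29, 0.0596), Cplx1 (−0.22, 0.101), Stx4a (−0.41, 0.204) and Vamp5 (−1.13, 0.0765) were no longer called lower. In the same edgeR fit Syt7 (0.10, adjusted p = 0.808), Stx17 (0.07, 0.83) and Unc13c (0.44, 0.29) were no longer called higher, and Stxbp5 turned to −0.23. With each pool as a block beside the length term, Snap25 (−0.30, SE 0.05, adjusted p = 0.00508) and Cplx1 (−0.22, SE 0.05, 0.0218) kept their calls, and the other members just named did not. In the fit without the block, Unc13a was reduced to 0.54 (SE 0.13) and stayed past the threshold. Vamp2 (−0.55), Stx7 (−1.09), Stx8 (−0.93), Rab3b (−0.69), Syn3 (1.11), Rab3d (1.39) and Sv2a (0.54) moved less and kept their calls.

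**Figure D3:**
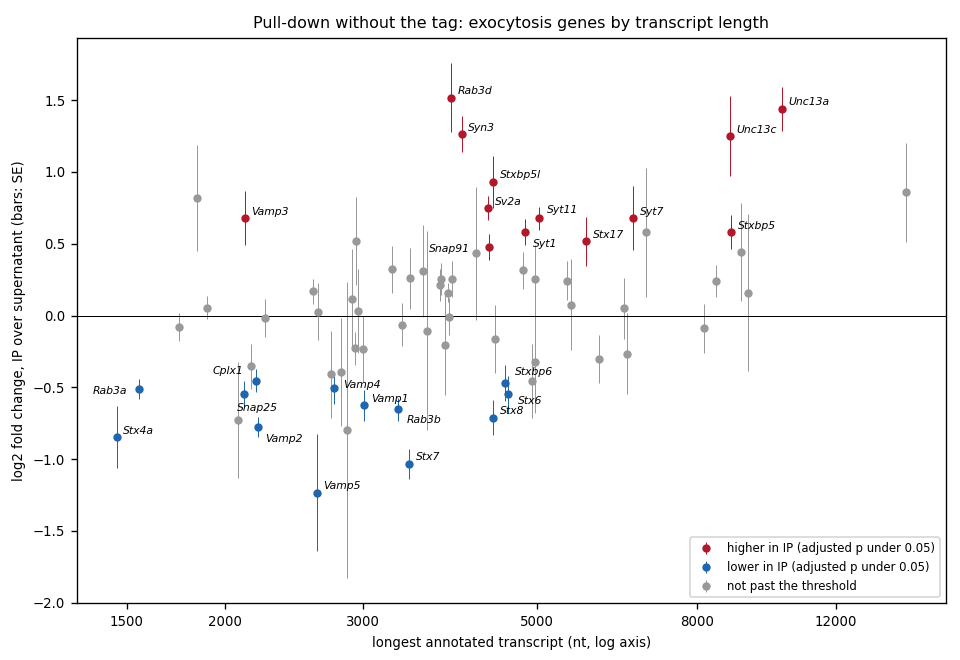
Log2 fold change of the IP over the supernatant, with its SE, for 70 of the 73 tested members against the length of the longest annotated transcript (log axis); red points are higher and blue points lower at an adjusted p under 0.05, and grey points did not pass. Unc13d, at −4.42 with an SE of 1.30, lies outside the range drawn, and calls above 5000 nt are all in the direction of the IP.

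Of the 28 calls, 27 had the same direction in all 5 pools, the exception being Stxbp6 (amisyn, a SNARE-binding protein that fell by 0.47, SE 0.13). With each pool as a block, Stx17 (adjusted p = 0.0608), Vamp5 (0.098) and Unc13d (0.05) lost their call. Leaving out single libraries ended 8 calls, among them the following. Stx4a lost its call without adult IP 1 (adjusted p = 0.0555), and Stxbp6 without adult supernatant 1 (0.0694) or adult IP 1 (0.0609). Vamp3 (0.68, SE 0.19) lost it without young supernatant 1 (0.0555), adult supernatant 1 (0.113) or adult IP 2 (0.0747), and Unc13d without any 1 of the 4 adult libraries (0.051 to 0.0924). Stx17 lost it without any library except young IP 2 and 3 (0.0561 to 0.211), Syt7 without any except adult supernatant 2 and the 3 young IP libraries (0.0575 to 0.183), and Vamp5 (−1.23, SE 0.41) without any except young supernatant 1 and young IP 1 and 2 (0.0503 to 0.179).

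Within age, 7 members were called higher and 6 lower in the adult pull-down (17.8% of 73, beside 10.9% of all genes, 6.39% higher and 4.49% lower). In the young pull-down 11 were called higher and 10 lower (28.8%, beside 27.1% of all genes, 13% higher and 14.1% lower). The adult count rests on 2 pools and was 2 without adult supernatant 1, 3 without adult supernatant 2, and 8 and 7 without adult IP 1 and 2. In the test of the difference itself, age by fraction, edgeR called 0 members and 0 of all genes. An unadjusted p under 0.05 was found for 2 members (2.74%), Synpr (−0.89, SE 0.30) and Snap47 (0.36, SE 0.16), beside 6.53% of all genes. Voom called 0 members, and DESeq2 called 0, beside 0.798% of all genes.

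Adult and young negative IP libraries were also set against each other. EdgeR called 0 members, beside 0.727% of all genes (0.324% higher and 0.403% lower), 9 members (12.3%) had an unadjusted p under 0.05, beside 17.7% of all genes, and DESeq2 called 7, beside 7.91% of all genes. Stx1a, the plasma membrane syntaxin, came nearest with 56.8 and 45.8 CPM in the adult IP, against 94.3, 86.4 and 127 CPM in the young IP (log2 fold change −0.97, SE 0.23, edgeR adjusted p = 0.0833). Its groups did not overlap. Syt5 had 141 and 144 CPM in the adult IP and 110, 105 and 95.5 CPM in the young IP (0.48, SE 0.14, adjusted p = 0.127). Genotype changes with age here and the 2 cannot be told apart.

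Outside the module the release genes of the active zone also split in the pull-down. Of 26 other release genes, 7 rose and 9 fell. The large active zone scaffolds Bsn (log2 fold change 2.01, SE 0.18) and Pclo (1.07, SE 0.14) and the calcium channel gene Cacna1a (1.61, SE 0.25) were higher, while the NSF adaptors Napa (−0.60, SE 0.10) and Napb (−0.72, SE 0.13) and the synuclein gene Sncb (−1.37, SE 0.08) were lower. Of 22 vesicle recycling genes, 6 rose and 7 fell, with clathrin heavy chain Cltc at 0.70 (SE 0.14) and the light chains Clta and Cltb at −0.85 and −0.90 (SE 0.09 each). Of 14 transmitter transporter and proton pump genes, 2 rose and 3 fell. Neuronal marker sums were higher in every IP library than in every supernatant. The 11 pan-neuronal genes summed to 6912 to 11069 CPM in the IP and 5074 to 6766 CPM in the supernatant; of these, Nefl, Nefm and Nefh (neurofilaments) rose and Stmn2, Uchl1 and Thy1 fell. The 6 genes of immature neurons summed to 281 to 371 CPM in the IP and 201 to 250 CPM in the supernatant, and 4 of them rose. Among markers of other cells, 3 of 8 microglial and 1 of 10 oligodendrocyte genes fell and 2 of 8 astrocyte genes rose. The summed microglial level was 49.6 to 86.5 CPM in the IP and 63.3 to 101 CPM in the supernatant. The part of these cells in the result was not tested.

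Adult and young supernatants were compared to ask how the preoptic area changes between day 21 and adulthood. Of 73 members 7 were called, 4 higher and 3 lower in adults, and the rest of the release machinery did not pass the test. Adults had more Syt4, Synpr, Syt5 and Syt1 mRNA and less Stx1a, Stx2 and Sv2c mRNA. The share called was 9.59%, beside 9.42% of all genes (4.2% higher and 5.22% lower), which is the background level. Among genes with a mean log2 CPM of at least 5 it was 11.1% of 45 members and 14.4% of all genes. The fit held 5 adult and 5 young pools with pool origin (prior or new) as a term. Genotype was not a term. It changes with age among the new pools, so age and genotype cannot be told apart there, whereas the prior pools were GFP-positive at both ages.

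Syt4, Syt5 and Syt1 were 3 of the 4 higher members, and none of the other synaptotagmins tested was called. Syt4, a form found on dense-core vesicles that does not act as a fast calcium sensor, had 136, 132 and 141 CPM in the new adult pools and 183 and 176 CPM in the prior adult pools, against 97.5, 103 and 81.8 CPM in the new young pools and 93.1 and 134 CPM in the prior young pools. The groups overlapped through young prior pool 2 alone, which lay just above adult negative pool 1. The log2 fold change was 0.58 (SE 0.09, edgeR adjusted p = 0.00237). Syt5 averaged 150 ± 12.8 CPM in adults and 113 ± 17.9 CPM in young mice (SD, n = 5 each), with no overlap and a log2 fold change of 0.41 (SE 0.09, edgeR adjusted p = 0.0173).

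Syt1, the main fast calcium sensor of forebrain synapses, had 290, 292 and 323 CPM in the new adult pools and 375 and 359 CPM in the prior adult pools, against 242, 251 and 244 CPM in the new young pools and 254 and 321 CPM in the prior young pools. Young prior pool 2 again reached into the adult range. The log2 fold change was 0.32 (SE 0.07, edgeR adjusted p = 0.0143), and without the origin term the call was lost (adjusted p = 0.105), as were those of Stx2 (0.0723) and Sv2c (0.0736). Synpr, a synaptophysin relative, averaged 55.5 ± 5.31 CPM in adults and 39.8 ± 6.28 CPM in young mice (0.48, SE 0.10, edgeR adjusted p = 0.012).

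Stx1a, the neuronal plasma membrane syntaxin, fell without overlap between the ages. It had 86.2, 76.2 and 64.5 CPM in the new adult pools and 85.9 and 79.4 CPM in the prior adult pools, against 104, 101 and 146 CPM in the new young pools and 128 and 109 CPM in the prior young pools. No adult pool reached a young pool, and the log2 fold change was −0.59 (SE 0.11, edgeR adjusted p = 0.00725). Stx2, a plasma membrane syntaxin of non-neuronal cells as well, averaged 14.5 ± 2.25 CPM in adults and 20.5 ± 3.14 CPM in young mice (−0.51, SE 0.14, edgeR adjusted p = 0.0355). Sv2c, the SV2 form of few neuron classes, averaged 6.06 ± 1.75 and 10.2 ± 2.31 CPM (−0.79, SE 0.19, adjusted p = 0.0225).

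The start regions of Stx1a and Syt1, the plasma membrane and vesicle partners that moved in opposite directions with age, are shown from RefSeq (build GRCm38.p6), each with 250 bases before and 50 after a transcription start. Capitals mark the GC box GGGCGG, searched on both strands. Stx1a lies at chr5:135023232-135023531 on the plus strand and Syt1, at the outer of its 2 listed starts, at chr10:109010926-109011225 on the minus strand.
Stx1a: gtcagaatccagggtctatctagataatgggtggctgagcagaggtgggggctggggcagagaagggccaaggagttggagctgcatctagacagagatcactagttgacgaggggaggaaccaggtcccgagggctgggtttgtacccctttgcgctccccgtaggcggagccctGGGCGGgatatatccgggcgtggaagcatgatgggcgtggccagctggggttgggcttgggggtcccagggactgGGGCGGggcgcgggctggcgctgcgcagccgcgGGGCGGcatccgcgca
Syt1: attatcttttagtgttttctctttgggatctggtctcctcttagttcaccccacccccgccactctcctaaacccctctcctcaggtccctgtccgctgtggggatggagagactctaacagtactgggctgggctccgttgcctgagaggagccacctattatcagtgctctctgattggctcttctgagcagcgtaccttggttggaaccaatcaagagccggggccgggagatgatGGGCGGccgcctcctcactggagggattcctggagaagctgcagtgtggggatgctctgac

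The Stx1a window holds 3 such boxes and 66.3% G and C, and the Syt1 window 1 box and 56.7%. The inner Syt1 start, at chr10:109009062-109009361, holds none at 44.0%. RefSeq windows matched 60 members with 77 starts, of which 64.9% hold GGGCGG, beside 35.7% of all 32851 windows of this length. The cyclic AMP response element TGACGTCA is in 1.30% of the member windows and 1.79% of all, and TATAAA in 6.49% and 13.6%. These matches describe the letters only.

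Apart from Syt1 and Stx1a, which were called as given above, the fast-release genes that were followed in every comparison did not pass in the age test. Their log2 fold changes were 0.11 for Snap25 (SE 0.07, edgeR adjusted p = 0.424), −0.15 for Vamp2 (SE 0.07, 0.169), −0.22 for Cplx1 (SE 0.10, 0.197) and −0.18 for Rab3a (SE 0.06, 0.0904). Syn1 (−0.29, SE 0.12, 0.14), Sv2a (0.20, SE 0.11, 0.283), Unc13a (−0.27, SE 0.11, 0.159) and Cplx2 (−0.32, SE 0.17, 0.26) did not pass either. Of the genes outside the module, 0 of 26 other release genes rose and 4 fell, among them the synuclein gene Sncb (−0.46, SE 0.09). Of 22 vesicle recycling genes 0 rose and 6 fell, including dynamin Dnm1 (−0.36, SE 0.11) and the endophilin gene Sh3gl1 (−0.53, SE 0.10). None of the 14 transporter and proton pump genes was called.

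**Figure D4:**
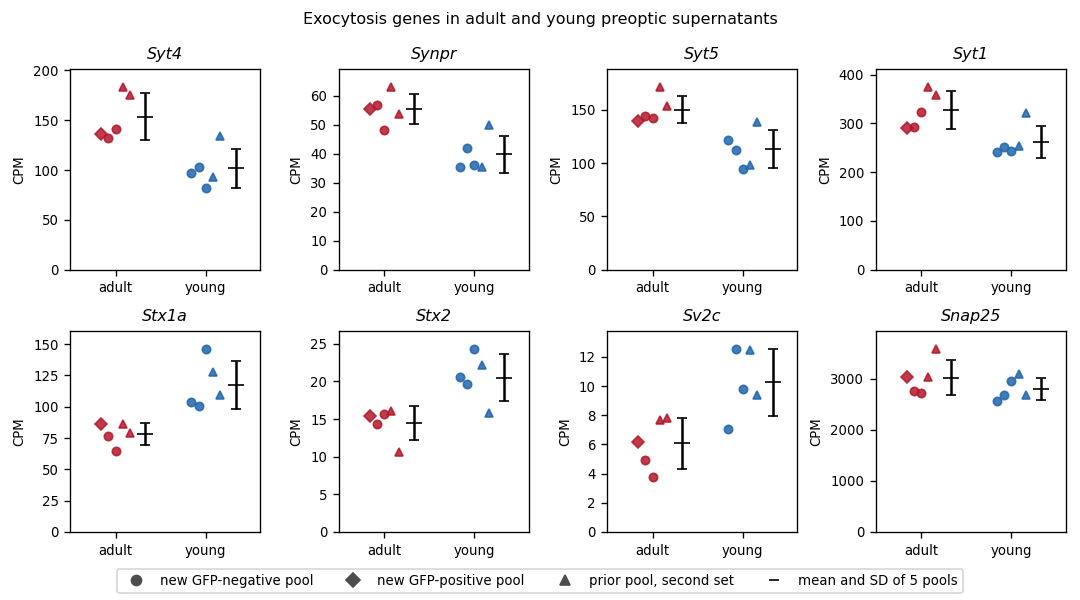
CPM in the 5 adult (left) and 5 young (right) supernatants of the second set for the 7 members called with age and for Snap25; circles are new GFP-negative pools, the diamond the new GFP-positive pool, triangles prior pools, and the black mark the mean with its SD. Stx1a and Syt5 do not overlap between ages, and 1 young prior pool lies high for Syt4, Synpr, Syt5 and Syt1.

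Cell markers moved with age in the same libraries. The 11 pan-neuronal genes summed to 5074 to 6244 CPM in adults and 6390 to 7183 CPM in young mice, with 3 called lower. Oligodendrocyte genes summed to 2520 to 5427 CPM in adults and 4533 to 6975 CPM in young mice, with 4 of 10 called lower, and 2 of 8 microglial genes (sums of 44.2 to 101 and 36.8 to 78.9 CPM) were called higher. Their part in the member differences was not tested. The age effect was also estimated within new and within prior pools. New pools alone kept Syt4 (0.55, SE 0.10, edgeR adjusted p = 0.0232) and Synpr (0.51, SE 0.11, 0.0425) of the 7 calls, with Stx1a at −0.62 (SE 0.16, 0.0694), and prior pools alone, 2 against 2, kept 0, with Syt4 at 0.66 (SE 0.17, 0.274) and Stx1a at −0.52 (SE 0.12, 0.22). A test of the age effect between new and prior pools called 0 members, beside 0.00617% of all genes, with 1 member (1.37%), Syn2 (0.40, SE 0.15, new minus prior pools), at an unadjusted p under 0.05, beside 3.63% of all genes. All 7 members had the same direction in both subsets, but they were chosen by the fit that joins these subsets, so this is no separate support.

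Leaving out single pools ended 2 of the 7 calls. Stx2 lost its call without any pool except young prior pool 2 and adult prior pool 3 (adjusted p = 0.0536 to 0.0973). Sv2c lost it without young negative pool 2 (0.0633), adult negative pool 1 (0.0696), adult negative pool 2 (0.051) or young prior pool 1 (0.0555). Syt1, Syt4, Syt5, Synpr and Stx1a kept theirs each time.

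Supernatant RNA of the 4 prior pools was sequenced in both sets, which shows how far a member can move when only the library and sequencing change. In these data 18 members were higher and 22 lower in the second set, 54.8% of 73, beside 31.1% of all 16117 genes (15% higher and 16.1% lower). Among genes with a mean log2 CPM of at least 5 it was 67.4% of 46 members and 52.3% of 6104 genes, a difference that was not tested. All 40 had the same direction in all 4 pools, and most shifts were small: 34 were under 0.5 on the log2 scale and the median size was 0.25.

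Rab3c, a neuronal Rab3 form, shifted most. It had 309 and 257 CPM in the young pools and 259 and 293 CPM in the adult pools of the second set, against 124 and 107 CPM in the young and 96.3 and 116 CPM in the adult pools of the first set. The sets were far apart, with ratios of 2.41 to 2.69 and a log2 fold change of 1.33 (SE 0.05, edgeR adjusted p = 3.76e-11). The other synaptic Rab3 genes lay close to 0, with Rab3a at 0.02 (SE 0.03, adjusted p = 0.604) and Rab3b at 0.13 (SE 0.04, 0.0162). Sv2c averaged 9.34 ± 2.24 CPM in the second set and 4.58 ± 0.99 CPM in the first (SD, n = 4 each), a log2 fold change of 1.01 (SE 0.13), beside −0.79 between ages. Syt10 averaged 11.3 ± 3.30 and 5.501 ± 2.54 CPM (1.11, SE 0.16), and Stxbp5l 43.1 ± 3.21 and 27.6 ± 3.76 CPM (0.64, SE 0.10).

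Several abundant members were lower in the second set. Syn1 averaged 578.5 ± 105 CPM in the second set and 786.5 ± 179 CPM in the first, with ratios of 0.688 to 0.773 over the 4 pools (−0.45, SE 0.04, edgeR adjusted p = 1.04e-06). Sv2a averaged 290 ± 63.4 and 358.8 ± 67 CPM (−0.33, SE 0.04) and Rims4, one of the short RIM forms, 8.93 ± 1.49 and 14.8 ± 4.39 CPM (−0.71, SE 0.15). Vamp2 moved by −0.15 (SE 0.03) and Snap25 by 0.09 (SE 0.03). Outside the module 5 of 26 other release genes were higher and 11 lower, 3 of 22 recycling genes higher and 9 lower, and 0 of 14 transporter and pump genes higher and 5 lower; the dynamin genes Dnm3 (0.65, SE 0.04) and Dnm1 (−0.48, SE 0.04) went opposite ways.

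**Figure D5:**
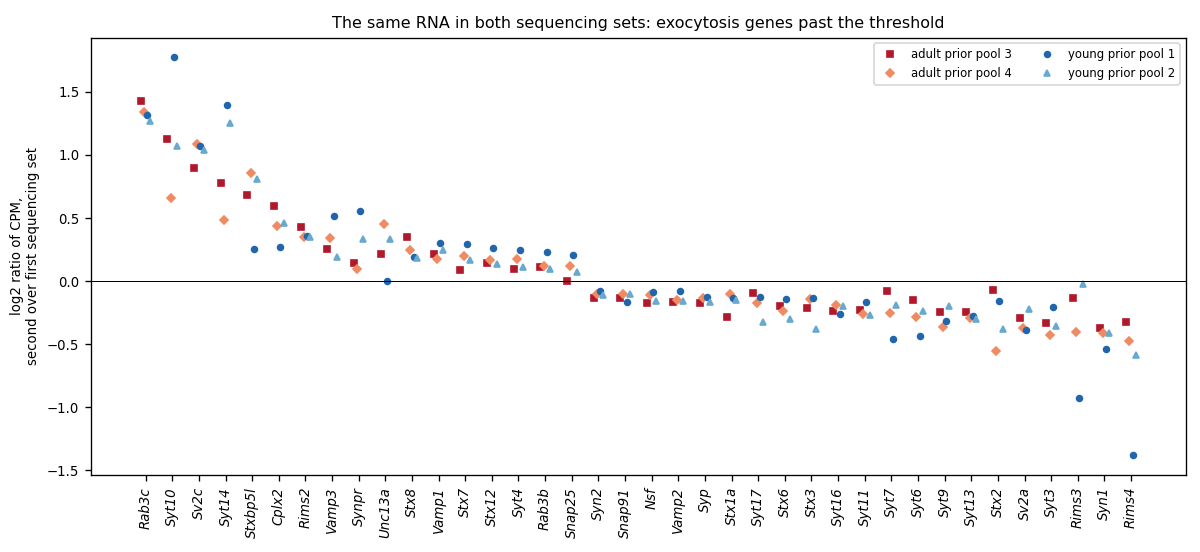
Log2 ratio of CPM, second over first sequencing set, in each of the 4 prior pools for 38 of the 40 members past the threshold, ordered by fitted log2 fold change. Rab3c is the member drawn furthest above 0 with all 4 pools close together, Sv2c, Syt10 and Syt14 also lie high, and Rims4 lies lowest.

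Of these 40 calls, 23 held whichever of the 8 libraries was left out, among them Rab3c, Syn1, Cplx2, Sv2a, Sv2c, Syt10, Stxbp5l and Rims4. The other 17 (among them Rab3b, Rims3, Snap25, Snap91, Stx1a, Stx2, Stx3, Stx8, Syn2, Synpr, Syt4, Syt7, Syt9, Syt14, Syt17 and Unc13a) were lost without at least 1 library, at adjusted p-values up to 0.258 for Unc13a. Every library ended some of them, from 5 calls without the first-set library of young pool 1 to 13 without either library of adult pool 4. A fit without the pool term called 11 members, beside 1224 genes higher and 1038 lower of 15817.

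The GFP-positive IP was set against the negative IP libraries to ask which release genes the tagged GnRH neuron ribosomes carry. With 1 tagged library, edgeR called 0 of 74 members against the adult negative IP, beside 0.00603% of all genes, which is the 1 gene Gnrh1. At an unadjusted p under 0.05 there were 5 members (Rab3a, Rab3b, Snap25, Syn2 and Syt3; 6.76%), beside 4.95% of all genes. Voom called 0 members and DESeq2 called 1, Rab3b, beside 1.32% of all genes. By level alone, 15 of 74 members (20.3%) stood above all 5 negative IP libraries and 13 (17.6%) below all 5, beside 17.0% and 15.9% of all genes. Each negative IP library taken against the other 4 had 8 to 28 members above and 10 to 19 below, so these counts lie within what untagged libraries show among themselves.

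Rab3b lay above the range of the negative IP. It had 572 CPM in the GFP-positive IP and 514 CPM in its own supernatant, against 335 and 298 CPM in the adult and 267, 279 and 295 CPM in the young negative IP. The log2 fold change against the adult negative IP was 0.89 (SE 0.20, unadjusted p = 0.00222, edgeR adjusted p = 0.938). Snap25 had 2921 CPM in the GFP-positive IP and 3037 CPM in its supernatant, against 1625 to 2131 CPM in the negative IP, and Rab3a 1710 and 1754 CPM, against 1220 to 1376 CPM. These 3 were named because they stood high in this library. They lay near the level of their own supernatant, whereas the untagged pull-down held less of each than its supernatants. The other members called lower without the tag all lay below their own supernatant in this library. Among them Vamp2 was at 0.580, Stx7 at 0.593, Cplx1 at 0.632 and Stx6 at 0.881 times that level.

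Other members of the GFP-positive IP lay outside the range of the negative IP in either direction. Syn2 (835 CPM, against 614 to 693 CPM), Syt3 (76.5 CPM, against 23.6 to 63.5 CPM) and Rab3c (388 CPM, against 243 to 319 CPM) were above it. Unc13a (51.4 CPM, against 67.1 to 117 CPM), Cplx1 (1027 CPM, against 1123 to 1563 CPM) and Syt11 (402 CPM, against 424 to 515 CPM) were below it. Syn3, with 56.5 CPM in the GFP-positive IP and 19.4 CPM in its own supernatant, kept in this library too the high IP level that it had without the tag (42.5 to 49.8 CPM). Markers of mature oligodendrocytes summed to 2636 CPM in the GFP-positive IP, against 2965 to 7829 CPM in the negative IP, and endothelial markers to 6.73 CPM, against 9.67 to 33.7 CPM, so both lay below all 5 negative libraries. Astrocyte, microglial, fibroblast and immature neuron sums lay within the range of the negative IP, and pan-neuronal genes to 8829 CPM, against 6912 to 11069 CPM. Their part in these values was not tested.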

How the data were processed

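Per the file itself and the submitters' processing notes, the authors deposited raw read counts per gene symbol, made with TopHat2 2.0.13, Bowtie2 2.2.1 and HTSeq 0.6.1 among other tools on mm10; strand setting, annotation and duplicate handling were not given. The extract protocol in the labels names amplification of polyA RNA with a SMARTer kit; no molecular identifiers are named, so detection floors cover counting error only. The members, lists and tests here were chosen with earlier results of these data known.

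Counts were tested with edgeR 4.0.16 (quasi-likelihood, TMM, filterByExpr with minimum count 10) in R 4.3.3, in separate fits of the 10 negative libraries, the 10 second-set supernatants, the 8 prior libraries (pool as term) and the 6 IP libraries; p-values were adjusted over all genes and the threshold was 0.05. The lone GFP-positive IP was taken to have the spread of the others. Alternatives were DESeq2 1.42.0, limma voom 3.58.1, DESeq2 size factors, no filter, a transcript-length offset, pool blocks and left-out libraries, with 1 added after the data were seen, the age effect between new and prior pools. The scripts were tested on simulated counts. Lengths came from the GENCODE annotation of GRCm38 for 98.4% of genes and all 76 members. The text names up to 12 members per direction with mean log2 CPM of at least 1, ordered by size, and a followed core.

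Per the titles, an IP and a supernatant with the same number came from the same pool. Their deviations from the group means correlated at 0.156, 0.104 and 0.266 in the young pools, against −0.199 to 0.0478 between young libraries of different numbers. In the adult pools the value was 0.0951 within and −0.0951 between numbers. With 2 libraries in a group the deviations mirror each other, so the adult pools give a single value that cannot decide the pairing. The numbers were treated as pairs in the blocked fit. For the adult negative supernatants the labels' descriptions give other replicate numbers than the titles, so the adult pairing, the adult pool ratios and the blocked fits rest on the titles. The series text names the GFP-positive supernatant inconsistently, and titles and genotypes were followed. Values of a few single genes are not reported here, though counts over the lists include them.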

Additional observations from a re-analysis of the deposited data

Results flagged for a closer look

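In groups of 5 libraries, a value was singled out where the highest or lowest library stood apart from the others by more than 0.71 of the group's range (Dixon's criterion). This held for 14 of 208 groups (6.73%) over 52 members, and chance alone gives about 1 in 20. The tests of age by fraction and of the age effect between new and prior pools called 0 members.

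Young prior pool 2 stood apart among the 5 young supernatants for 5 members: Sv2a at 334 CPM (others 179 to 199), Syt1 at 321 CPM (242 to 254), Syt11 at 390 CPM (258 to 280), Syt13 at 212 CPM (138 to 154) and, on the low side, Stx6 at 129 CPM (145 to 151). In the first sequencing set the same RNA had 389 CPM of Sv2a, against 260 CPM in young prior pool 1.

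Young negative pool 3, the pool with floxed L10a-GFP only, stood apart in both fractions for Cplx2, a complexin, with 406 CPM in its IP (other negative IP 173 to 223) and 563 CPM in its supernatant (255 to 307 in the other negative and 241 to 307 in the other young supernatants). Its IP also held 148 CPM of Stx6 (91.4 to 99.1) and 724 CPM of Syn1 (390 to 444), and its supernatant 16.2 CPM of Syt9 (22.2 to 24.3). The genotype of this pool differs from that of the other young pools.

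Among the adult supernatants, adult negative pool 2 had 282 CPM of Cplx2 (255 to 261) and 6.01 CPM of Unc13b (3.47 to 4.14), and the GFP-positive pool 20.1 CPM of Syt9 (24.2 to 24.5).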

How the results depend on the processing

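Of the 28 members called between the untagged IP and its supernatant, 15 kept their call in all 17 alternatives. The count was 21 to 31 with 1 library left out and 31 with each pool as a replicate block; the block gave 23 in the young, 18 in the adult pull-down and 0 for age by fraction. Over all 16361 genes the block called 2467 higher and 2503 lower. In the young pull-down these were 2057 and 2209, and in the adult pull-down 1103 and 972. The block ended the calls of Stx17, Vamp5 and Unc13d and of no other of the 28. Stxbp5 reversed to −0.23 with the length offset, with and without the block, and to −0.0071 with the offset and −0.0086 with both in the adult pull-down. With 1 library left out, the young pull-down gave 15 to 23 calls, the adult pull-down 2 to 18, age within the IP 0 to 1, age by fraction and the GFP-positive IP 0, age in supernatants 5 to 10 and sequencing set 27 to 37. DESeq2 called 21 members in the adult pull-down, beside 1617 genes higher and 1474 lower of 18930. For age within the IP it called 7, beside 7.91% of all genes. For age in supernatants it called 11, beside 1016 genes higher and 1260 lower of 19095. Age in supernatants gave 4 calls with no origin term, beside 266 genes higher and 389 lower of 15537. New pools alone gave 2, beside 210 higher and 271 lower of 15593. Prior pools alone gave 0, beside 5 higher and 6 lower of 15621. The sequencing set gave 11 calls with no replicate block, and Unc13a reversed to −0.10 with the length offset. The cause of these differences was not tested, and the subsets also held fewer libraries. The 1 GFP-positive IP, the 2 adult negative pools and the few reads of members under 1 CPM limit what could be detected.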
